A study of Rattus norvegicus with 3 samples.

Results

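Receptors for neurotransmitters and related messengers were examined in the inner medulla of the rat kidney after lithium treatment. The set was chosen by gene symbol, and no measured value entered the rule, although earlier results of these data were known. It took genes for the receptors of glutamate (Gria, Grik, Grin and Grm), GABA (Gabr), glycine (Glra), acetylcholine (Chrm and Chrn), dopamine (Drd), serotonin (Htr), noradrenaline and adrenaline (Adra and Adrb), histamine (Hrh), opioid peptides and nociceptin (Opr) and somatostatin (Sstr). This gave 97 of the 4388 named genes on the array, read by 120 of its 5760 probes. Each symbol taken was that of a receptor or receptor subunit.

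Each of 3 arrays set RNA from the inner medulla of rats given lithium for 1 month, labelled red, against RNA of control rats, labelled green. Arrays 1 and 2 carried a pool of 2 rats in each channel, and array 3 carried 1 rat in each channel. The labels give no strain, age, sex or dose. No array had its dyes swapped, so dye and treatment cannot be told apart. A value is the deposited log ratio minus its array's median over all probes. A value above 0 was read as higher with lithium, which is likely from the channel order but is not stated in the table. This direction was not tested, and every higher or lower in this text rests on it. All 8 collecting duct markers described below, Aqp2 among them, had means above 0. The log base is not stated either, and folds are therefore given for base 10 and for base 2. In whole tissue, fewer cells of a type and less RNA per cell cannot be told apart.

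Transmitter receptors work in 2 ways. Receptors for glutamate (Gria, Grik, Grin), GABA-A and glycine receptors, nicotinic receptors and the serotonin 5-HT3 receptor are ion channels that the transmitter opens, the GABA-A and glycine receptors passing chloride and the others cations. The remaining receptors act through G proteins: Gs raises cyclic AMP, Gi lowers it, and Gq releases calcium. In the inner medulla, vasopressin acts on the collecting duct through cyclic AMP, and receptors coupled to Gs or Gi can add to or oppose that signal. Sympathetic nerves supply the kidney with noradrenaline, and dopamine is made in the renal tubule itself. Many of the other receptors are best known from brain, muscle or endocrine tissue.

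No receptor gene passed the test, and most of those measured on all 3 arrays had a mean close to 0. A value on every array was available for 58 of the 97 genes. Of these, 29 had a mean log ratio above 0, 27 below 0 and 2 at exactly 0. The median of the 58 means was 0.000417, beside 0.0133 over all 3818 features tested, and 52 of the 58 lay within 0.1 of 0 (89.7%, beside 79.3% of all features). Single arrays spread more, and 23 of the 58 genes had all 3 values within 0.1 of 0. With limma (two-sided, Benjamini-Hochberg over all features), 0 of 58 passed an adjusted p of 0.05, where 13 of 3818 features (0.340%) did. At an unadjusted p of 0.05, 6 of 58 receptor genes passed (10.3%), against 17.2% of all features.

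Ratios above 0 on every array were less frequent among receptor genes than over all features, and ratios below 0 on every array were about as frequent, neither being tested. Above 0 on every array lay 9 of the 58 genes (15.5%), beside 24.1% of all features. Another 8 genes (13.8%) lay below 0 on every array, beside 14.5% of all features. Without centring the counts were 8 above and 13 below. Centred on the features measured on all 3 arrays they were 9 and 12, so the balance of signs moved with the centring. Either change shifts all features of an array alike. The shares over all features given above hold for the main centring only, and those for the other centrings are not given here. The median 95% interval of limma reached 0.103 to either side of a gene's mean, from 0.0911 for the narrowest to 0.200 for the widest. For 30 of the 58 genes the interval lay wholly between −0.15 and 0.15.

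**Figure D1:**
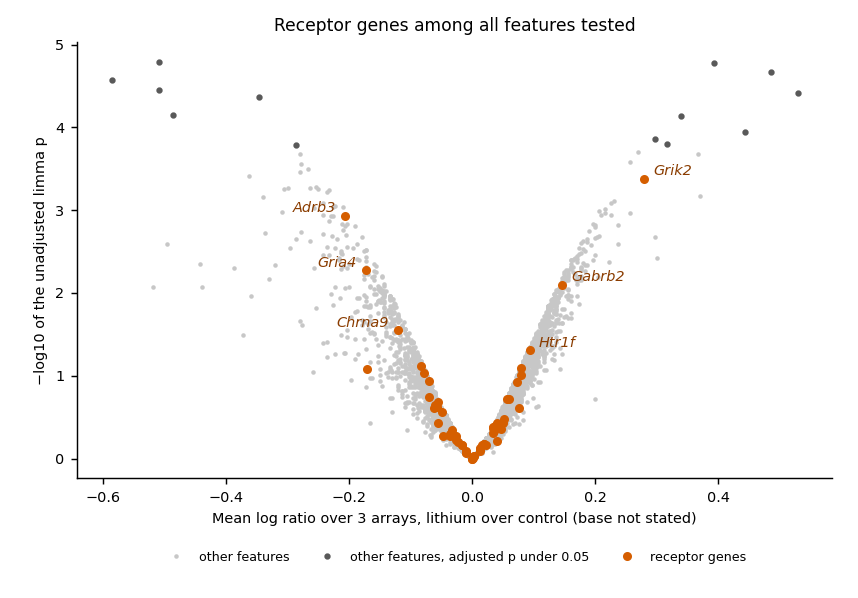
Mean log ratio over the 3 arrays (x axis, base not stated) against −log10 of the unadjusted limma p (y axis) for all 3818 features tested, with the 58 receptor genes in orange and the 13 features past an adjusted p of 0.05 in dark grey. The 6 labelled receptor genes have an unadjusted p under 0.05, and Grik2 at 0.28 and Adrb3 at −0.21 are the farthest out.

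Among the ionotropic glutamate receptors, the kainate receptor subunit gene Grik2 had the highest ratio of all 58 genes and the AMPA receptor subunit gene Gria4 was the lowest of its family among the 12 genes measured on all arrays. Grik2 (gene ID 54257) read 0.22, 0.25 and 0.37 on arrays 1, 2 and 3. All 3 values lay above 0, with array 3 highest. Its mean was 0.28 ± 0.08 (SD, n = 3), 1.91-fold if the base is 10 and 1.21-fold if it is 2, with a limma 95% interval from 0.17 to 0.39. It ranked 22nd of all features by p, and its limma adjusted p of 0.0722 missed the threshold. The adjusted p was 0.0452 when ratios were centred within the printed blocks of spots, 0.0167 with the arrays scaled to 1 spread and 0.00768 with a robust prior. It was 0.743, 0.296 and 0.408 without array 1, 2 and 3, so the call depended on the settings and the number of arrays.

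The other kainate receptor genes did not share this value. Grik5, whose subunit needs a partner such as that of Grik2 to form a channel, read 0.04, 0.09 and 0.04 (0.06 ± 0.03, adjusted p = 0.495). Grik4, of the same high-affinity class, spread from −0.10 to 0.17, and Grik3 read −0.05, −0.09 and 0.14, which averages to 0. Grik1 was read by 2 probes and their mean was −0.115, 0.03 and −0.095 (−0.06 ± 0.08). Grik5 was thus above 0 on every array at a small size, while Grik1, Grik3 and Grik4 changed sign between arrays. By distance over the 3 array values, the features nearest to Grik2 were Nrp1, a neuropilin gene with 0.21, 0.19 and 0.37, then Myh2, a myosin heavy chain gene, and Tmpo, which encodes a nuclear envelope protein, at distances of 0.0608, 0.104 and 0.114.

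For the AMPA receptor genes, which encode the fast excitatory channels, the result depended on the probe. Gria4 read −0.10, −0.24 and −0.18 (−0.17 ± 0.07, limma adjusted p = 0.142). Its first probe had values of −0.08, −0.04 and −0.18, whereas its second read −0.12 and −0.44 and was empty on array 3. The array 2 value thus averages 2 probes 0.40 apart, and the first probe alone gave a mean of −0.10 (adjusted p = 0.292). Gria3 read 0.02, −0.11 and 0.09 from 2 probes, a mean of 0. Gria1 ran from −0.11 to 0.14. Neither Gria1 nor Gria3 kept 1 sign.

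The NMDA receptor genes, whose channels open when glutamate and glycine or serine bind together, had means near 0 where all 3 arrays measured them. The required subunit gene Grin1 read 0.03, 0.00 and 0.07 from 2 probes that lay up to 0.22 apart. Grin3a read 0.03, 0.055 and 0.015 (0.03 ± 0.02, adjusted p = 0.700), above 0 on every array. Grin2d read −0.02, 0.17 and 0.005, so its mean of 0.05 rested on array 2. Grin2c stayed within 0.05 of 0. Grin2a had values of 0.04 and −0.56 on arrays 1 and 2 and none on array 3, so the arrays that measured it disagreed. Grin2b had a value of 0.16 on array 2 alone. Over the whole ionotropic family 8 of 12 tested genes had a mean above 0, 2 had one below and 2 stood at 0. The family median was 0.02, beside 0.0133 over all features tested.

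**Figure D2:**
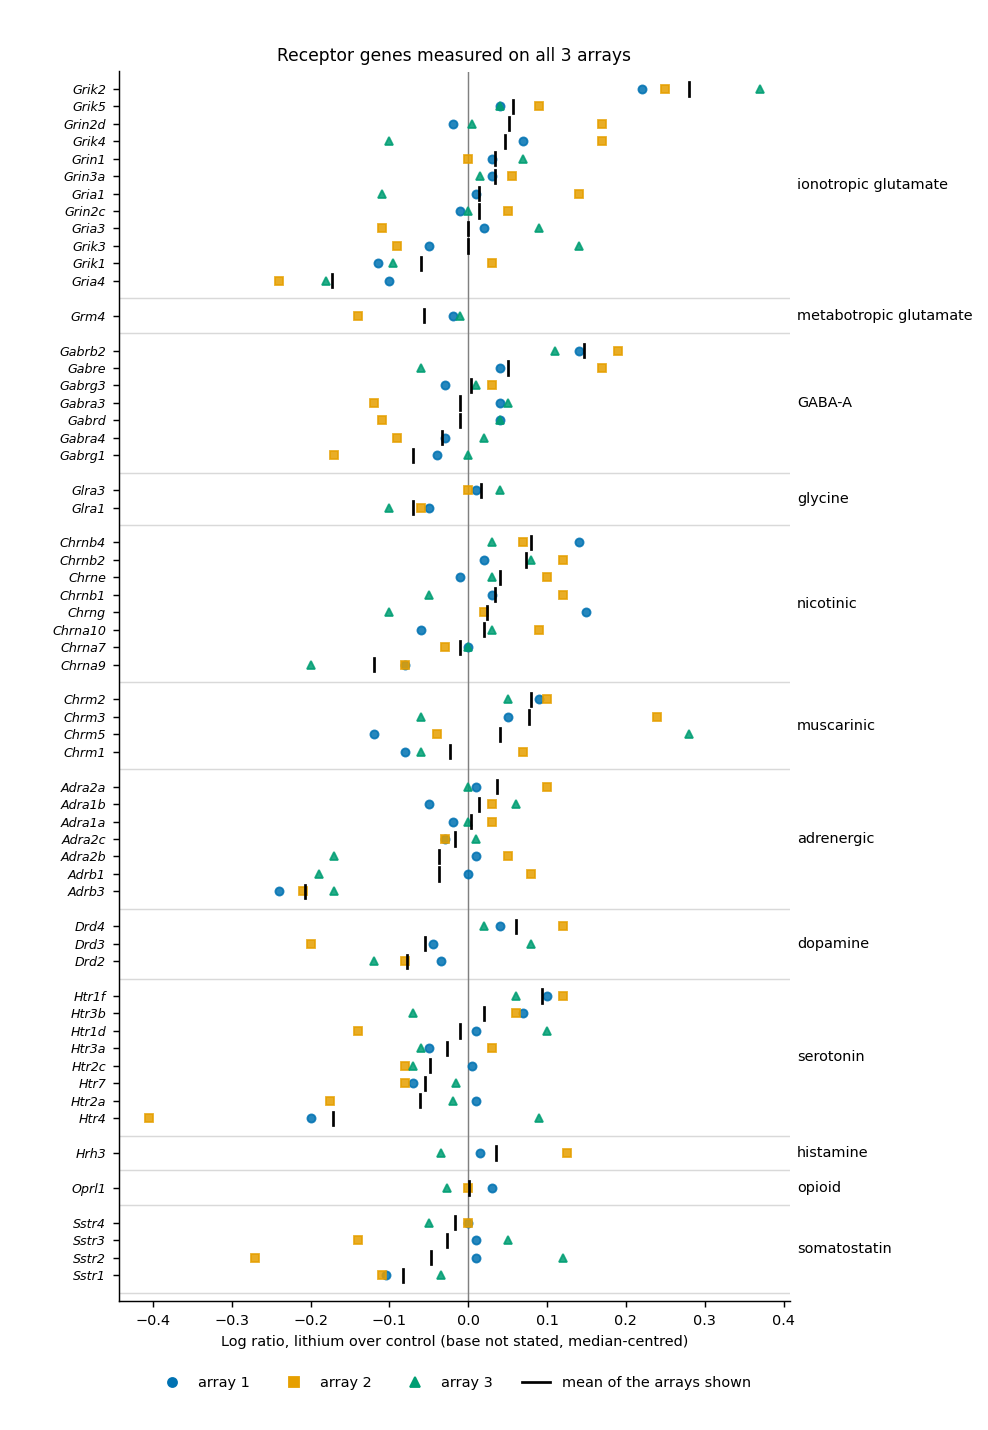
Log ratio on arrays 1, 2 and 3 (x axis, base not stated) of each of the 58 receptor genes with a value on all 3 arrays, grouped by family, with a black bar at the mean of the 3. Most points lie between −0.2 and 0.2, Grik2 is the only gene above 0.2 on every array, and array 2 often lies farthest from 0, as for Htr4, Sstr2 and Chrm3.

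Of the inhibitory chloride channel genes, Gabrb2 was highest. It encodes the beta-2 subunit found in many GABA-A receptors and read 0.14, 0.19 and 0.11, a narrow spread with every value above 0. Its mean of 0.15 ± 0.04 corresponds to 1.40-fold if the base is 10 and 1.11-fold if it is 2 (limma adjusted p = 0.165). The gamma-1 subunit gene Gabrg1 was the lowest of the 7 tested in its family at −0.04, −0.17 and 0.00 (−0.07 ± 0.09, adjusted p = 0.477). Gabre, the epsilon subunit gene, read 0.04, 0.17 and −0.06 from 1 of its 2 probes, since the other was empty on all arrays. Gabra3, Gabra4, Gabrd and Gabrg3 had means between −0.03 and 0.00333, and each had values on both sides of 0. The glycine receptor gene Glra1 read −0.05, −0.06 and −0.10 (−0.07 ± 0.03, adjusted p = 0.396), below 0 throughout, whereas Glra3 read 0.01, 0.00 and 0.04.

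Nicotinic receptor genes that were measured on all arrays had 6 of 8 means above 0. Their median was 0.03, beside 0.0133 over all features tested. The exception with the smallest p was Chrna9, whose subunit forms the receptor of cochlear hair cells, at −0.08, −0.08 and −0.20 (−0.12 ± 0.07, limma adjusted p = 0.233). Array 3 was the lowest of its 3 values. Chrnb4, a subunit of ganglionic receptors, was highest at 0.14, 0.07 and 0.03 (0.08 ± 0.06, adjusted p = 0.376). Chrnb2 read 0.02, 0.12 and 0.08 and was the only other gene of the family above 0 on every array. Chrna7, which forms receptors of its own, stayed at 0.00, −0.03 and 0.00. Chrna10, the partner of Chrna9 in hair cells, read −0.06, 0.09 and 0.03 and so did not share its sign. The subunit genes Chrnb1, Chrne and Chrng of the muscle receptor had means of 0.03, 0.04 and 0.02, and each had values on both sides of 0.

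The muscarinic receptor genes spread widely between arrays. The cardiac-type receptor gene Chrm2, coupled to Gi, was highest and most even at 0.09, 0.10 and 0.05 (0.08 ± 0.03, limma adjusted p = 0.349). Chrm3, coupled to Gq, read 0.05, 0.24 and −0.06, and Chrm5 read −0.12, −0.04 and 0.28. Chrm1 was the lowest of the 4 tested at −0.08, 0.07 and −0.06. For Chrm3 and Chrm5 a single array thus set the mean.

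Among the adrenergic receptor genes, the 5 measured for alpha receptors had means between −0.04 and 0.04, and Adrb3 stood lower. Adrb3 (gene ID 25645), the Gs-coupled beta-3 receptor known from fat cells and described in the collecting duct, read −0.24, −0.21 and −0.17. The 3 values were close together and all below 0. Their mean of −0.21 ± 0.04 (SD, n = 3) corresponds to a ratio of 0.621 if the base is 10 and of 0.867 if it is 2, with a limma 95% interval from −0.30 to −0.11. It was the lowest mean of the 58 genes and ranked 49th of all features by p (limma adjusted p = 0.0916). The adjusted p was 0.0340 with the arrays scaled to 1 spread and 0.0304 with a robust prior, but without array 1, 2 or 3 it took the values given above for Grik2, which the adjustment assigns to many features alike.

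No other adrenergic gene came near this value. Adrb1, the main cardiac beta receptor gene, read 0.00, 0.08 and −0.19. Adra2a, a Gi-coupled receptor gene whose product opposes cyclic AMP, was the highest of the family at 0.01, 0.10 and 0.00 (0.04 ± 0.06, limma adjusted p = 0.695). Adra2b read 0.01, 0.05 and −0.17, so that array 3 stood apart for both Adra2b and Adrb1. Adra2c, Adra1a and Adra1b had means of −0.02, 0.00333 and 0.01. Adra1d had no value on any array.

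The 3 dopamine receptor genes measured on all arrays lay on both sides of 0, and none passed. Drd4 was highest at 0.04, 0.12 and 0.02 (0.06 ± 0.05, limma adjusted p = 0.495) and Drd2 lowest of the 3 tested at −0.035, −0.08 and −0.12 (−0.08 ± 0.04, adjusted p = 0.368). Each kept 1 sign, in opposite directions, although both are coupled to Gi. Drd3 read −0.045, −0.20 and 0.08. In Drd2 and Drd3 only 1 of the 2 probes had a value on array 3.

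Serotonin receptor genes measured on all arrays mostly had means below 0, at 6 of 8. Their median was −0.04, beside 0.0133 over all features tested. Htr1f, a Gi-coupled receptor gene, was highest at 0.10, 0.12 and 0.06 (0.09 ± 0.03, limma adjusted p = 0.287), with every value above 0. Htr4, coupled to Gs, was lowest of the 8 tested at −0.20, −0.405 and 0.09 (−0.17 ± 0.25, adjusted p = 0.353), with array 3 opposite in sign to the other arrays. On array 3 only 1 of its 2 probes had a value. That probe itself read −0.27, −0.48 and 0.09, so it changed sign by itself as well.

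The remaining serotonin receptor genes with several probes were near 0. Htr7, also coupled to Gs, read −0.07, −0.08 and −0.015 (−0.06 ± 0.04, limma adjusted p = 0.514), below 0 on every array. Htr2a, coupled to Gq, read 0.01, −0.175 and −0.02, with its 2 probes within 0.06 of each other. Htr2c averaged 0.005, −0.08 and −0.07, but its probes read −0.35 and 0.19 on array 2, the widest gap between probes of any receptor gene (0.54). Htr1d read 0.01, −0.14 and 0.10 and changed sign. The ion channel genes Htr3a (−0.05, 0.03 and −0.06) and Htr3b (0.07, 0.06 and −0.07) changed sign as well.

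Histamine, opioid and metabotropic glutamate receptors each had 1 gene measured on all arrays, whereas somatostatin receptors had 4 of 5. Hrh3, a Gi-coupled receptor gene, read 0.015, 0.125 and −0.035. Oprl1, the nociceptin receptor gene, had 5 probes that averaged to 0.03, 0.00 and −0.0275, although single probes ran from −0.30 to 0.21 on array 2. Its mean near 0 therefore averages probes that disagreed. Sstr1, an inhibitory somatostatin receptor gene, was the lowest of the 4 tested at −0.105, −0.11 and −0.035 (−0.08 ± 0.04, limma adjusted p = 0.345), with 2 probes up to 0.28 apart. Sstr2 read 0.01, −0.27 and 0.12, Sstr3 read 0.01, −0.14 and 0.05, and Sstr4 was highest of the 4 tested genes at 0.00, 0.00 and −0.05. All 4 tested somatostatin receptor genes had a mean below 0, between −0.08 and −0.02. Grm4, the only metabotropic glutamate receptor gene on all arrays, read −0.02, −0.14 and −0.01.

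Grouped by signal, the 4 tested Gs-coupled receptor genes (Adrb1, Adrb3, Htr4 and Htr7) all had means below 0, from −0.21 to −0.04 with a median of −0.11. Another 4 Gs-coupled genes lacked array 3. Their means over arrays 1 and 2 were −0.43 for Drd1, −0.025 for Hrh2, −0.02 for Drd5 and 0.005 for Htr6. The 16 Gi-coupled genes had 6 means above 0 and 10 below (median −0.02), and the 7 Gq-coupled genes had 4 above and 3 below (median 0.00333). The 22 cation channel genes had 15 means above 0 and 5 below (median 0.02), and the 9 chloride channel genes 4 above and 5 below (median −0.01). The median over all features tested was 0.0133. The share of all features with a mean above 0 is not given here, and the class counts were not tested. No class held a gene past the threshold. Adrb3 and Htr7 kept 1 sign on all arrays, whereas Adrb1 and Htr4 did not.

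Array 3 had no value for 38 of the 97 receptor genes, and its empty values fell unevenly over the families. Of the 120 receptor probes 48 were empty there (40.0%), against 23.4% of the 4944 named probes that are not for receptors. The receptor probes were also empty more often on array 1 (7.50% against 2.43%) and on array 2 (5.00% against 1.09%). Metabotropic glutamate receptor probes were empty on array 3 most often, at 4 of 6, followed by dopamine at 4 of 7, GABA-A at 9 of 17, then serotonin (10 of 20), opioid (4 of 8) and histamine (2 of 4) alike, and nicotinic at 7 of 15. Glycine (1 of 3), somatostatin (2 of 7) and muscarinic receptors (1 of 5) followed, and ionotropic glutamate (3 of 20) and adrenergic receptors (1 of 8) had the lowest shares. Why a probe was left empty is not given in the sources used here, and spot intensities were not used.

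**Figure D3:**
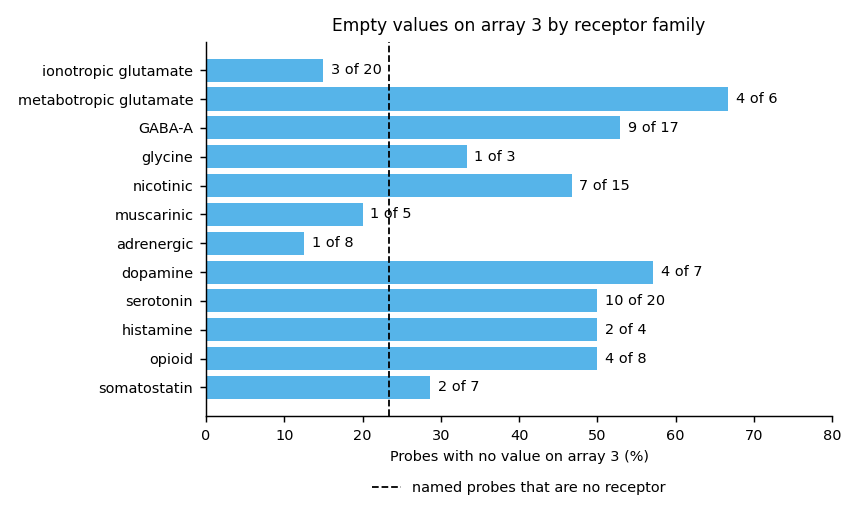
Share of each family's probes with no value on array 3 (x axis, percent), with the number of probes beside each bar and a dashed line at 23.4% for named probes that are not for receptors. Metabotropic glutamate (66.7%) and dopamine (57.1%) receptors are highest, and adrenergic (12.5%), ionotropic glutamate (15.0%) and muscarinic (20.0%) receptors lie below the line.

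The empty values left 39 genes without a complete set. Gabra5, Gabrq and Adra1d had no value at all. Gabra2 had only array 1 (−0.10), and Chrnd, Gabrp and Grin2b had only array 2, at −0.73, −0.60 and 0.16. Gabra6 lacked array 1 and read 0.04 and −0.02. The other 31 genes had values on arrays 1 and 2 alone.

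Apart from the single values of Chrnd and Gabrp, the lowest ratios lay among these 31 genes. Chrna5, whose subunit joins other nicotinic subunits, read −0.77 and −0.73 on arrays 1 and 2. Hrh1, the Gq-coupled histamine receptor gene targeted by antihistamines, read −0.65 and −0.56, and Chrna1, the muscle receptor's alpha subunit gene, −0.52 and −0.63. In each the arrays were close to each other and far below 0. Next came Grm5, a Gq-coupled metabotropic glutamate receptor gene, at −0.57 and −0.42, the Gs-coupled dopamine receptor gene Drd1 at −0.44 and −0.42, and the glycine receptor gene Glra2 at −0.39 and −0.44. These 6 of the 31 genes (19.4%) read under −0.3 on both arrays, against 104 of all 1082 features measured only on these arrays (9.61%). Grm8 (−0.23 and −0.47), Htr5b (−0.30 and −0.34) and Htr1a (−0.25 and −0.32) followed.

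The rest of the 31 lay nearer to 0. Their highest mean was that of Gabrb1 at 0.095, and Sstr5, Gabrr2, Oprm1 and Htr6 were the other genes with a mean above 0. Chrna3 read −0.06 and −0.37, Htr2b −0.13 and −0.34, and Htr5a −0.27 and 0.01, so the arrays differed by over 0.2 in each. The opioid receptor genes Oprd1 and Oprk1, the retinal receptor genes Gabrr1 and Gabrr3, and Chrm4, Chrna4, Chrna6, Drd5, Grm7, Htr1b and Hrh2 had means between −0.125 and −0.02. Chrnb3 and Grm6 stood at −0.20 and −0.16.

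**Figure D4:**
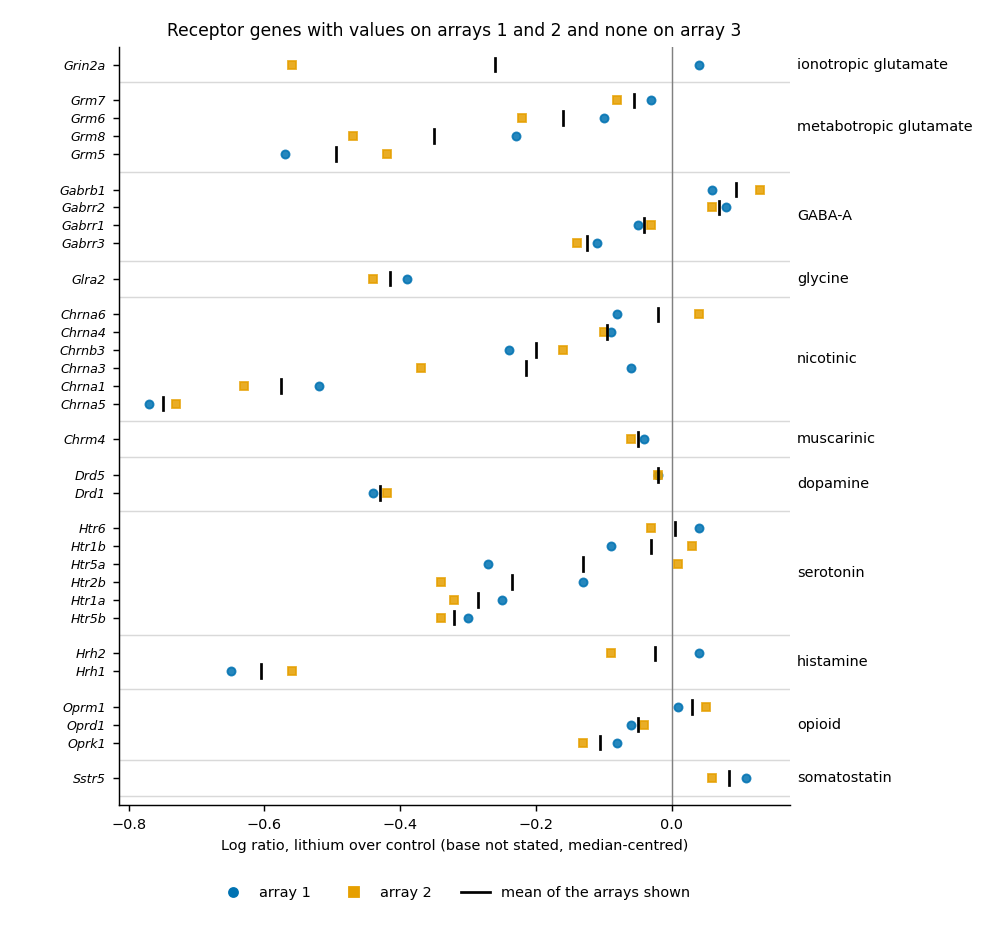
Log ratio on arrays 1 and 2 (x axis, base not stated) of the 31 receptor genes with values on arrays 1 and 2 and none on array 3, grouped by family, with a black bar at the mean of the 2. Chrna5, Hrh1, Chrna1, Grm5, Drd1 and Glra2 lie below −0.3 on both arrays, and only 5 genes have a mean above 0.

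These low values moved with the emptiness of array 3 across the whole table, not in receptors alone. Receptor probes empty on array 3 had medians of −0.09 on array 1 (n = 40) and −0.16 on array 2 (n = 43), against 0.00 and 0.03 for receptor probes with a value there. For all probes the medians were −0.08 and −0.18 where array 3 was empty, and 0.01 and 0.04 where it was not. Ratios under −0.3 on array 2 made up 41.9% of the receptor probes empty on array 3 and 30.7% of all such probes, against 1.41% and 2.77% of those with a value. On array 1 they made up 15.0% of the receptor probes empty on array 3 and 12.8% of all such probes, and 0% and 0.586% of those with a value. The part of spot brightness or dye in these ratios was not tested.

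When features measured on at least 2 arrays were admitted, 3 of 90 receptor genes passed the limma adjusted p (3.33%), beside 40 of 4928 features (0.812%). They were Chrna5 (adjusted p = 0.0317), Hrh1 (0.0424) and Chrna1 (0.0433), all lower, and each rests on arrays 1 and 2 only. Drd1 followed at 0.0559 and Glra2 and Grm5 at 0.0606. Fitted on arrays 1 and 2 alone, with every feature measured on both, no receptor gene and no other feature passed, and the smallest adjusted p among receptor genes was 0.236. These 3 calls thus appeared only in the fit that included array 3, which held no value for the genes themselves. The 2 fits also differed in their features (4928 and 4900). Leaving array 1 or array 2 out of the main fit left no feature past the threshold either, so the part of array 3 in these calls was not isolated.

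Genes that make, move or anchor transmitters and their receptors had values on both sides of 0. The array held 82 genes of 5 lists, and 58 of them were tested. Those with values on arrays 1 and 2 only ran from Dlg2 (−0.32 and −0.73) to Grk1 (0.14 and 0.12). Low values without array 3 were thus found in these lists too. Of the 58 tested genes, 29 had a mean above 0 and 27 below (median 0.00333), and 1 passed. Of these 58 means 43 lay within 0.1 of 0 (74.1%), beside 89.7% for the receptor genes and 79.3% for all features. The gene that passed was Gls2, a glutaminase that releases glutamate from glutamine, which read 0.25, 0.39 and 0.31, a mean of 0.32 ± 0.07 (limma adjusted p = 0.0483) that is higher with lithium if the direction is as read here and lower if it is turned. With any 1 array left out, neither Gls2 nor any other feature passed. Among the other 12 tested genes of synthesis and breakdown, Abat, the enzyme that degrades GABA, read −0.16, −0.21 and −0.15 (adjusted p = 0.128) and Hnmt, which inactivates histamine, had a mean of 0.11 (adjusted p = 0.230). None of 11 transporter genes passed, with Slc22a3, an organic cation transporter of monoamines, at −0.13, Slc1a3, a glutamate transporter, at −0.08 and Slc6a13, a GABA transporter, at −0.12 (adjusted p from 0.216 to 0.329).

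None of the 34 ligand, scaffold and regulator genes passed, and 10 of them had means beyond 0.1 in size. The share within 0.1 of 0 was 70.6%, beside 79.3% of all features. Of 4 opioid and somatostatin ligand genes, Penk stood at −0.17 ± 0.12, Pdyn at 0.09 ± 0.05 and Sst at 0.08 ± 0.02 (limma adjusted p from 0.184 to 0.360). Of 18 scaffold and trafficking genes, Dlg3 stood at −0.125, Cask at −0.17 and Gabarap at 0.11 (adjusted p from 0.209 to 0.245). Of 12 receptor kinase, arrestin and RGS genes, Grk4 stood at −0.15, Rgs14 at 0.14 and Rgs8 at −0.13 (adjusted p from 0.177 to 0.194).

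Tested markers of the cells that could carry these receptors had medians near 0 in each list, apart from that of the collecting duct. Markers with values on arrays 1 and 2 only are not counted here. They ran from Nefm (−0.24 and −0.68) to Syp (0.03 and 0.12). Of 13 tested nerve and Schwann cell markers 5 had means above 0 and 8 below, the range was −0.11 to 0.12 and the median −0.01. Medians were 0.03 for 5 chromaffin and sympathetic markers, −0.02 for 5 smooth muscle markers and −0.00667 for 3 endothelial markers. All 8 collecting duct markers had values on all arrays and means above 0, with a median of 0.13, though none passed on its own. They ran from 0.00667 for Aqp3 to 0.24 for Scnn1b, with Aqp2 at 0.17. These are higher with lithium only if the direction is as read here. Whether cell number, regulation of these genes or the direction of the ratio set these values was not tested. Ratios hold no levels, so whether a receptor was expressed in this tissue could not be judged, and the part of the cell mixture in the receptor ratios was not tested.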

How the data were processed

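Expression was measured on 3 dual-colour arrays of rat inner medulla. The deposited values are log ratios of the 2 channels, 1 per probe and array, for 5760 probes. Scanner, background correction, normalization, log base and the reason for empty values are not given in the sources used here. Probes were named from the platform's annotation: 5064 had 1 symbol, 9 several and 687 were not listed, and the last 2 kinds stood as themselves. Gene IDs of all 97 receptor genes were found in the GRCr8 gene table.

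Each array was centred on its median (−0.02, −0.04 and 0.00), and probes of 1 symbol were averaged per array. The 3818 features measured on all 3 arrays were fitted with limma 3.58.1 in R 4.3.3 (intercept only, eBayes, Benjamini-Hochberg, adjusted p of 0.05). P-values are adjusted over all genes tested. Arrays hold different rats, so the spread includes that between animals or pools. The fit was tested on simulated data with independent normal noise, drawn from the fitted model and equal in spread on all 3 arrays. It found 16.4% of the features given a shift of 0.15, 89.6% at 0.3 and 100% at 0.5, and wrongly called 13 of 3618. Many shifted features passed there, which eases the adjusted threshold, whereas 13 of 3818 features passed in the real data. The real arrays also had unequal weights (4.53, 0.371 and 0.595). The shares found may therefore be too high for the real data.

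Array values are given for genes with an unadjusted p under 0.05, the highest and lowest of each family with 3 or more tested genes, genes with several probes, and genes without array 3 whose mean was beyond 0.25 in size. Up to 3 genes per pathway list are named by p. Other receptor genes are named so that each is accounted for. Receptor genes, lists and alternatives were chosen with earlier results of these data known. Alternatives were other centrings, scaling, features on at least 2 arrays, single probes, each array left out, array weights, a robust prior and an unadjusted threshold. Splitting symbols by gene ID, arrays 1 and 2 alone, and other limits for low ratios were chosen after seeing the data. Python 3.11.15, pandas 2.3.3, numpy 2.4.6, scipy 1.17.1 and matplotlib 3.10.9 were used for tables and figures.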

Additional observations from a re-analysis of the deposited data

How the results depend on the processing

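Each ratio already compares lithium with control RNA within 1 array. All 3 arrays form a single group of such direct comparisons, so no further pairing was possible. The count of receptor genes past the threshold was 0 of 58 in the main analysis, and also without centring, centred on features measured on all 3 arrays, with single probes, with symbols split by gene ID, on arrays 1 and 2 alone, and from 0 to 0 with each array left out. It was 1 with centring within blocks, 2 with the arrays scaled to 1 spread, 2 with a robust prior, 3 with features on at least 2 arrays, 6 at an unadjusted p and 11 with array weights. Over all features the main count of 13 became 20, 98, 95, 40, 657 and 1058 in the same order, 0 on arrays 1 and 2 alone and 0 to 0 with each array left out. The array weights were 4.53, 0.371 and 0.595, so that fit rests mostly on array 1. The receptor median moved to −0.0196 without centring, −0.0163 centred on features measured on all 3 arrays, −0.0217 with features on at least 2 arrays and −0.035 on arrays 1 and 2 alone. Leaving out each array gave −0.0075 to 0. Genes of 1 sign on all 3 arrays numbered 17. With features on at least 2 arrays they were 42 of 90, and with each array left out 24 to 34. In these counts 2 values of 1 sign could be enough, so they cannot be compared with the 17. Their shares over all features are not given here. The share of empty receptor probes on array 3 was 39.2% when counted by gene.

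Of 384 ratios of 32 named genes over 12 alternatives, 348 neither crossed the threshold nor turned from the sign of their main value (Gria3, whose main value is 0, has no sign to turn, and Htr3a reached 0 with centring within blocks), 16 passed newly and 20 turned sign, all of these 20 with main values within 0.1 of 0. The cause was not tested. Centring within blocks gave 0.00667 for Chrm1, 0.02 for Htr1d, −0.0224 for Oprl1 and 0.00333 for Sstr4. Oprl1 was −0.0192 without centring and −0.0158 centred on features measured on all 3 arrays. Scaling gave 0.00457 for Htr1d. Array weights gave −0.00446 for Grin2d, 0.00961 for Htr1d and 0.00299 for Sstr2, and single probes gave 0.03 for Htr2c and 0.0267 for Sstr2. With each array left out, ratios ran from −0.07 to 0.005 for Chrm1, −0.1225 to 0.0175 for Drd3, −0.01 to 0.105 for Gabre, −0.0075 to 0.0875 for Grin2d, −0.01 to 0.07 for Hrh3, −0.065 to 0.055 for Htr1d, −0.01375 to 0.015 for Oprl1 and −0.13 to 0.065 for Sstr2. Over 12 alternatives Grik2 ran from 0.235 to 0.31 and passed in 4, and Adrb3 from −0.24 to −0.19 and passed in 3. The count of 6 genes under −0.3 on arrays 1 and 2 was 7 without centring, 7 with centring within blocks, 9 at −0.2 and 5 at −0.4. With 3 arrays and no spot intensities, signal over background is unknown.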
